A study of Rattus norvegicus with 6 samples.

Results

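Neuronal and synaptic cell adhesion genes were examined in isolated sensory neurons of hypertensive rats after removal of the fat around the kidney. They were taken by symbol, as the protein-coding genes of the neurexin, neuroligin, contactin, contactin-associated protein, NCAM, L1, SynCAM, LRRTM, LRFN, SLITRK, FLRT and latrophilin families. The rule found 45 of the 25689 genes in the count table, and 43 of them were among the 14919 genes with enough counts to be tested. Genes of these families without a row in the table were not analysed here. The samples were dorsal root ganglion (DRG) neurons of spinal levels L1-L2 from wild type Spontaneously Hypertensive Rats (SHR), an inbred strain in which blood pressure rises with age. Of the 6 samples, 3 were taken 4 weeks after perirenal adipose tissue ablation (PRATA), the surgical removal of that fat, and 3 after a sham operation. The labels gave an age of 6 to 8 weeks for all of them, whereas the study's methods describe older rats. The comparison of the groups addresses how gene expression in these neurons differed after PRATA. The labels did not say whether the samples of a group came from separate animals, so p-values measure only the spread between these samples.

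Cell adhesion molecules of neurons span or coat the plasma membrane and bind partners on the facing cell. Neurexins on the presynaptic side bind neuroligins and LRRTM proteins on the postsynaptic side, and such pairs help to assemble synapses. Contactins, contactin-associated proteins and the L1 family hold axons to each other and to glia, and several of them build the nodes of Ranvier and the junctions that flank them. DRG neurons send a central branch to the spinal cord, where they form synapses, and a peripheral branch into tissue.

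The samples held between 5892967 counts (sham replicate 2) and 15226952 counts (sham replicate 1), and 3 counts, the limit that a count of 0 allows, corresponded to between 0.197 and 0.509 CPM (counts per 1e+06 counts). These limits were computed from the raw totals, without the normalization (TMM) applied to the other CPM values, and cover counting error only. The members took 0.408% to 0.423% of all counts in the PRATA samples and 0.342% to 0.388% in the sham samples. Over all genes tested, PRATA replicate 3 and sham replicate 1 clustered together and apart from the other 4 samples. The 17 sensory neuron markers were all detected, and their summed level was 12903 to 20572 CPM after PRATA and 9336 to 14716 CPM after sham. Their median log2 fold change was 0.44, and 17 of 17 lay above 0. Markers of other cell types were detected too. The 10 satellite glia markers summed to 3297 to 6313 CPM after PRATA and 4432 to 8735 CPM after sham, with 10 of 10 log2 fold changes below 0 and a median of -0.60. The 10 Schwann cell markers summed to 1916 to 2501 CPM after PRATA and 1400 to 1738 CPM after sham, and the 9 fibroblast markers to 338 to 2000 CPM and 930 to 1862 CPM, with median log2 fold changes of 0.72 and -0.52. Single genes weighed heavily in these sums. Ngfr gave 825, 586 and 803 CPM of the Schwann cell sum after PRATA and 403, 523 and 393 CPM after sham. Apoe gave 3319, 5229 and 2779 CPM of the satellite glia sum after PRATA and 6283, 3707 and 7473 CPM after sham. The 10 macrophage markers summed to 29.8 to 104 CPM after PRATA and 37.6 to 86.7 CPM after sham, and the 8 endothelial markers to 69.3 to 146 CPM and 28.3 to 170 CPM, with medians of 0.57 and 0.30. With an unadjusted p under 0.05, 4 sensory neuron, 3 Schwann cell and 1 endothelial marker were higher after PRATA, and 1 satellite glia and 1 fibroblast marker were lower. At that threshold 8.19% of all genes tested were higher and 10.1% lower. In each of these lists, 0 genes were at 0 in every sample.

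Among the adhesion genes, Nfasc, Cntnap4, Flrt1, Cntn2, Cadm3, Cntn1, Cntnap1, Nrxn2 and Nlgn2 were higher after PRATA and Cadm4 and Ncam2 lower, each with an unadjusted p under 0.05. Of the 43 tested, 32 had a log2 fold change (PRATA minus sham) above 0, that is 74.4%, beside 52.0% of all genes. Their median log2 fold change was 0.41, beside 0.02 over all genes. The summed level of the members was 4343, 4117 and 4158 CPM after PRATA and 3602, 3573 and 3531 CPM after sham, so the groups did not overlap. The groups were compared by the quasi-likelihood test of edgeR, and p-values were adjusted over all genes by the Benjamini-Hochberg method. Not a member reached an adjusted p below 0.05, nor did any of the 14919 genes (0%). DESeq2 called 1 member, Nfasc, among 728 genes at that threshold, and limma voom with sample quality weights called 5 members among 1173 genes. With an unadjusted p under 0.05, 9 members were higher, or 20.9%, where 8.19% of all genes were, and 2 members were lower, or 4.65%, where 10.1% of all genes were. With a log2 fold change past 1 as well, 0 members were higher, where 1.17% of all genes were, and 1 member was lower, where 3.23% of all genes were. The groups did not overlap, with PRATA higher, for 8 members, where this held for 11.6% of all genes, and with PRATA lower for 1 member, where it held for 11.2%. These counts moved with single samples. Without sham replicate 2 there were 16 higher and 4 lower members with an unadjusted p under 0.05, beside 2073 higher (13.4%) and 2181 lower (14.1%) of 15438 genes. Without PRATA replicate 1 there were 2 higher and 0 lower, beside 548 higher (3.47%) and 858 lower (5.44%) of 15774 genes. Without sham replicate 3 there were 3 higher and 0 lower, beside 593 (3.76%) and 878 (5.57%) of 15758 genes. Nfasc and Cntnap4 had an unadjusted p under 0.05 in each of the 6 fits that left out a sample, and the other 9 members lost it in at least 1 of them. In bulk samples such as these, fewer cells of a type and less RNA per cell cannot be told apart.

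**Figure D1:**
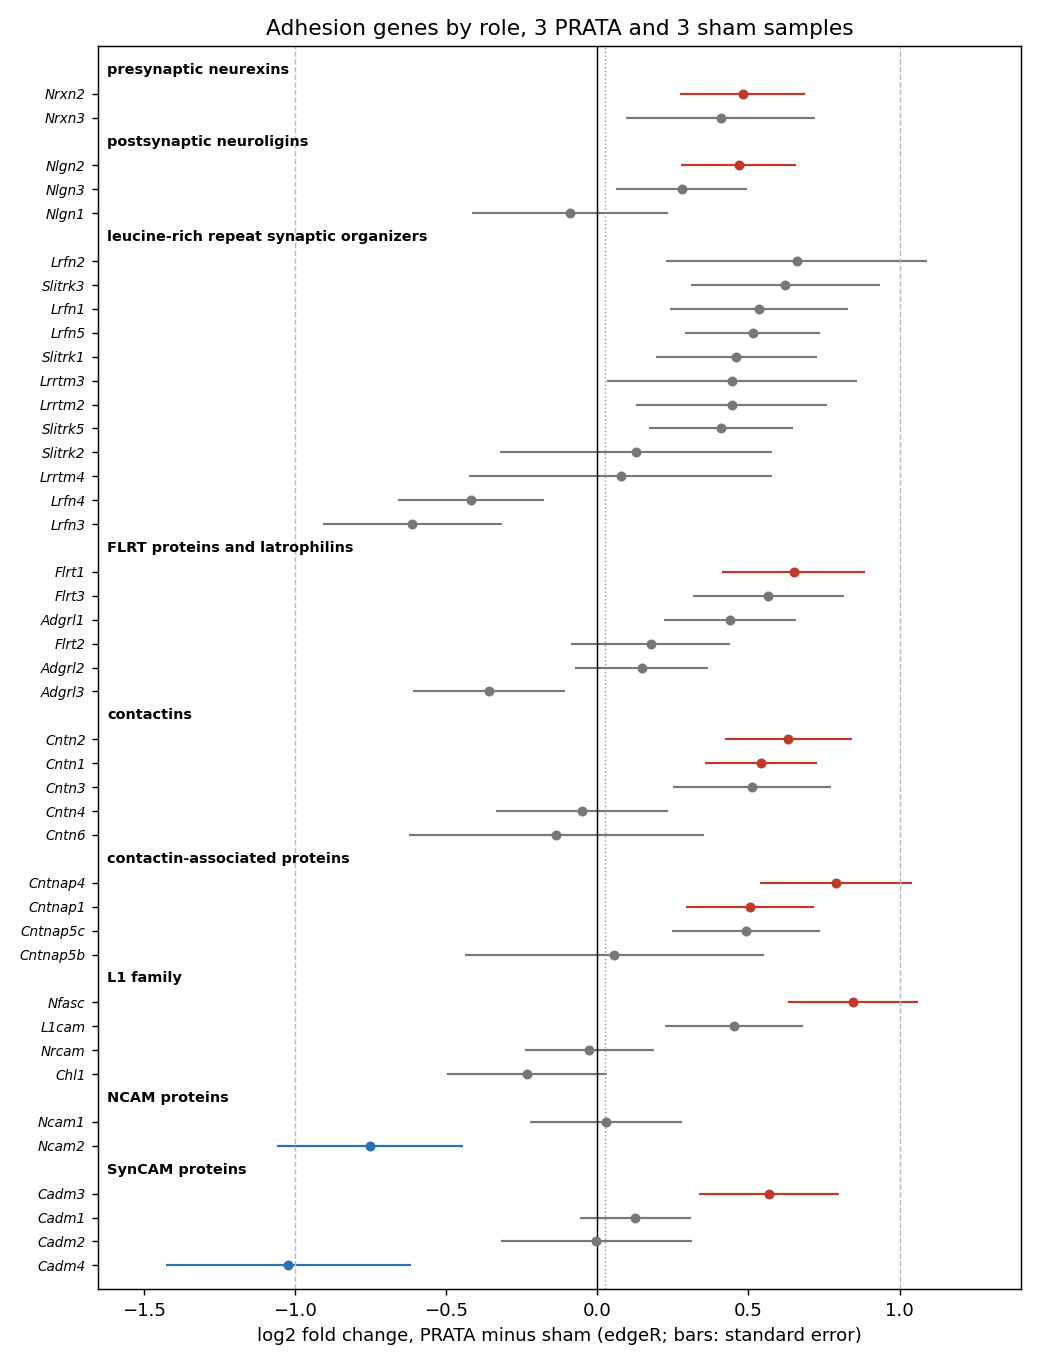
Log2 fold change of the adhesion genes tested (PRATA minus sham, x axis), grouped by role, with 1 gene not shown. Points are edgeR estimates, bars are standard errors, the dotted line is the median of all genes (0.02), the dashed lines mark a log2 fold change of 1 in either direction, and the genes with an unadjusted p under 0.05 are red (9 higher) or blue (2 lower).

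The largest of the differences with an unadjusted p under 0.05 in the upward direction was in the L1 family. Nfasc (ENSRNOG00000030515) encodes neurofascin, which gathers sodium channels at nodes and at the axon initial segment and, in its glial form, anchors the flanking junctions. It was at 224, 153 and 175 CPM in PRATA replicates 1 to 3 and at 88.2, 125 and 93.6 CPM in sham replicates 1 to 3. Every PRATA sample was above every sham sample. The means were 184 ± 36.0 CPM (SD, n = 3) and 102 ± 20.2 CPM (SD, n = 3), a log2 fold change of 0.85 (standard error 0.22, edgeR adjusted p = 0.167). The exact permutation test gave p = 0.10, two-sided, the smallest value that 3 samples against 3 allow. Without sham replicate 2, the log2 fold change of Nfasc was 1.02 (edgeR adjusted p = 0.0427), and without PRATA replicate 1 it was 0.66 (edgeR adjusted p = 0.550). The fit without sham replicate 2 called 721 of 15438 genes at an adjusted p under 0.05. L1cam (ENSRNOG00000061230), which supports axon growth and bundling, was at 576, 549 and 553 CPM after PRATA and at 349, 531 and 346 CPM after sham. Its groups did not overlap either, although sham replicate 2 came close to the PRATA samples, and the log2 fold change of 0.45 (standard error 0.23, edgeR adjusted p = 0.326) did not reach an unadjusted p of 0.05. Without sham replicate 2 it was 0.69, with an unadjusted p under 0.05 (edgeR adjusted p = 0.0612). The other members of the family had log2 fold changes of -0.03 for Nrcam, which joins neurofascin at nodes, and -0.23 for Chl1, the close homolog of L1cam.

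Contactins are anchored to the outer membrane leaflet by a lipid and pair with L1 family and contactin-associated proteins. Cntn2 (ENSRNOG00000009033), known from the junctions beside the paranode and from growing sensory axons, was at 386, 322 and 396 CPM after PRATA and at 208, 291 and 215 CPM after sham. Cntn1 (ENSRNOG00000004438), the axonal partner at the paranode, was at 477, 386 and 437 CPM after PRATA and at 276, 317 and 299 CPM after sham. For both genes the groups were apart, with the highest sham value in replicate 2 and the lowest PRATA value in replicate 2. The log2 fold change was 0.63 for Cntn2 (standard error 0.21, edgeR adjusted p = 0.198) and 0.54 for Cntn1 (standard error 0.18, edgeR adjusted p = 0.206). Cntn2 lost its unadjusted p under 0.05 without PRATA replicate 1 (0.58), PRATA replicate 3 (0.58) or sham replicate 3 (0.57), and Cntn1 without PRATA replicate 1 (0.45). Cntn3 was lower in count, with 14.97, 9.88 and 9.81 CPM after PRATA and 6.84, 8.12 and 9.26 CPM after sham, and its groups did not overlap (log2 fold change 0.51, edgeR adjusted p = 0.329). Cntn4 and Cntn6 had log2 fold changes of -0.05 and -0.14. Cntn5, with 7, 14 and 24 counts after PRATA and 12, 5 and 8 counts after sham, had too few counts to be tested.

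Contactin-associated proteins are relatives of neurexins, and Cntnap1 is the axonal partner of Cntn1 at the paranode. Cntnap1 (ENSRNOG00000020277) was at 163, 132 and 198 CPM after PRATA and at 104, 139 and 104 CPM after sham, so that PRATA replicate 2 lay below sham replicate 2. Its log2 fold change was 0.51 (standard error 0.21, edgeR adjusted p = 0.260), and the unadjusted p exceeded 0.05 without PRATA replicate 1 (0.49), PRATA replicate 3 (0.35), sham replicate 1 (0.41) or sham replicate 3 (0.44). Cntnap4 (ENSRNOG00000011231), which has been placed at inhibitory synapses in the brain, was at 13.3, 11.2 and 12.9 CPM after PRATA and at 6.98, 9.21 and 5.57 CPM after sham. Its groups were apart, with a log2 fold change of 0.79 (standard error 0.25, edgeR adjusted p = 0.188). Cntnap5c had a log2 fold change of 0.49 and Cntnap5b of 0.06. Those paralogs resemble each other closely, and how reads shared between paralogs were counted is not given in the sources used here, so the split between them is uncertain. The 4 genes of this group had a median log2 fold change of 0.50, and 4 of 4 lay above 0.

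**Figure D2:**
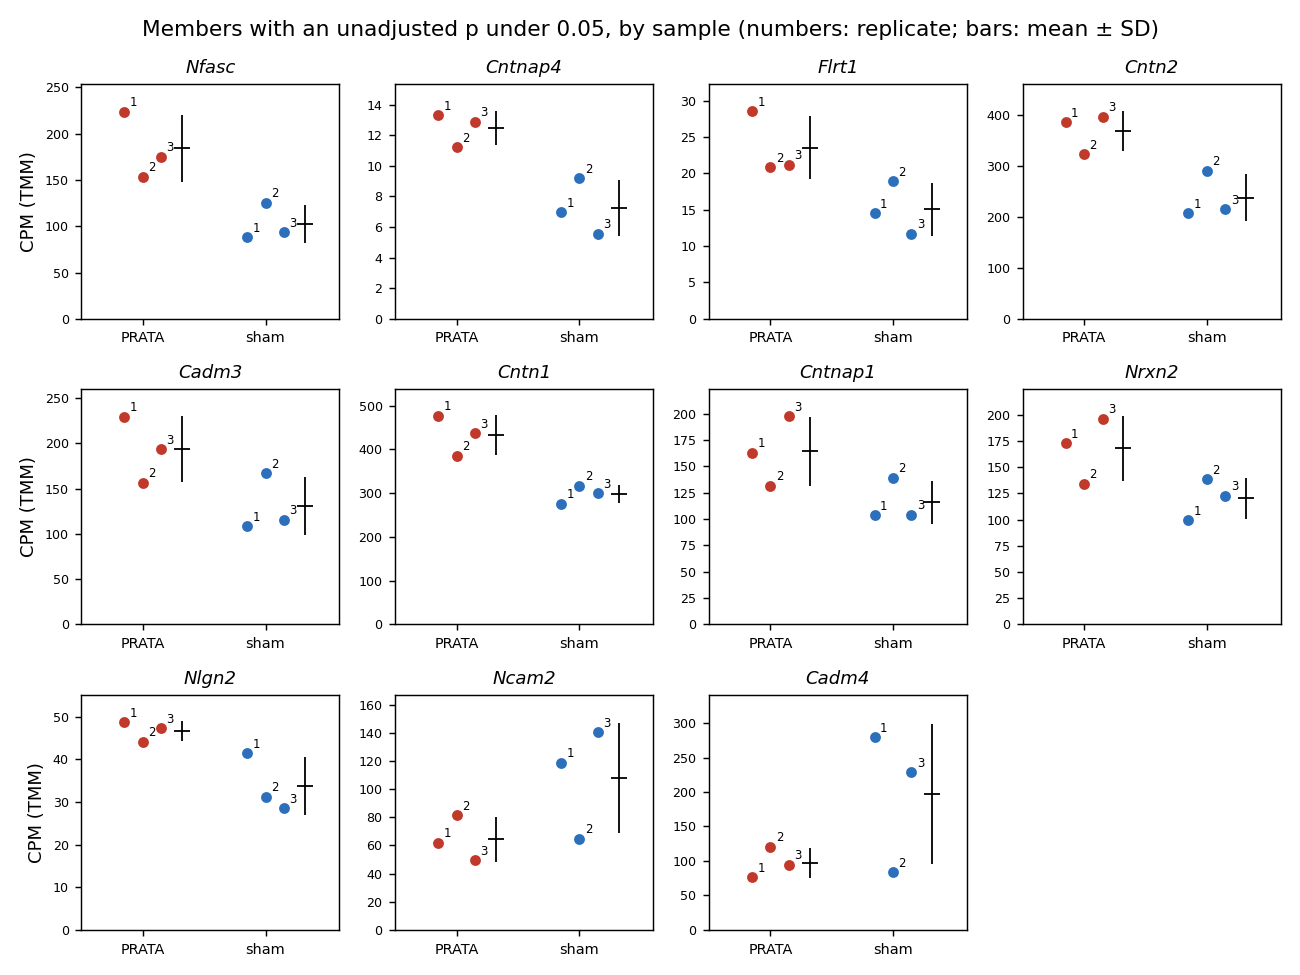
Level of each of the 11 members with an unadjusted p under 0.05 (TMM-normalized CPM, y axis from 0) in the 3 PRATA (red) and 3 sham (blue) samples. Points are samples with their replicate number, and bars are the mean and SD of the group. The points of the groups overlap for Cadm3, Cntnap1, Nrxn2, Ncam2 and Cadm4.

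Among the trans-synaptic pairs, the neurexins, which serve as presynaptic hubs, included Nrxn2, with a log2 fold change of 0.48, and Nrxn3, with 0.41. Nrxn2 (ENSRNOG00000021103) was at 173, 134 and 196 CPM after PRATA and at 99.4, 138 and 123 CPM after sham. PRATA replicate 2 lay below sham replicate 2, and the edgeR adjusted p = 0.268 went with a standard error of 0.21. Its unadjusted p exceeded 0.05 without PRATA replicate 1 (log2 fold change 0.43), PRATA replicate 3 (0.36), sham replicate 1 (0.34) or sham replicate 3 (0.51). Of the neuroligins, the postsynaptic receptors of neurexins, Nlgn2 (ENSRNOG00000015430), the form known from inhibitory synapses, was at 48.7, 44.1 and 47.4 CPM after PRATA and at 41.5, 31.2 and 28.5 CPM after sham. The 3 PRATA values exceeded all sham values, at a log2 fold change of 0.47 (standard error 0.19, edgeR adjusted p = 0.251). The unadjusted p of Nlgn2 stayed under 0.05 when sham replicate 1 was left out (0.62) and exceeded it when any other sample was (0.37 to 0.51). Nlgn3 (ENSRNOG00000003812), found at both excitatory and inhibitory synapses, was at 43.2, 54.8 and 49.2 CPM after PRATA and at 46.8, 44.8 and 29.8 CPM after sham (log2 fold change 0.28, edgeR adjusted p = 0.512). Nlgn1, the form of excitatory synapses, had a log2 fold change of -0.09. Nrxn3, Nlgn1 and Nlgn3 did not reach an unadjusted p of 0.05.

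The leucine-rich repeat organizers are mostly postsynaptic proteins that bind neurexins or receptor tyrosine phosphatases across the cleft. Of the 12 tested, 10 had a log2 fold change above 0, with a median of 0.44, and 0 had an unadjusted p under 0.05 in either direction. Lrfn5 (ENSRNOG00000005550), a ligand of receptor tyrosine phosphatases, came nearest, at 27.5, 21.4 and 29.97 CPM after PRATA and 17.0, 23.1 and 15.3 CPM after sham. Its log2 fold change was 0.51 (standard error 0.22, edgeR adjusted p = 0.273), and PRATA replicate 2 lay below sham replicate 2. The unadjusted p was under 0.05 without PRATA replicate 2 (0.65) or sham replicate 2 (0.70). Lrrtm2 (ENSRNOG00000047085), a neurexin ligand of excitatory synapses, was at 35.8, 45.0 and 20.6 CPM after PRATA and at 32.9, 19.7 and 21.6 CPM after sham. These values overlapped widely, and the log2 fold change was 0.44 (edgeR adjusted p = 0.476). It was 0.70 without PRATA replicate 3, with an unadjusted p under 0.05, 0.69 without sham replicate 1 and 0.18 without PRATA replicate 2, and 0.96 in the 4 samples left when PRATA replicate 3 and sham replicate 1 were both set aside (edgeR adjusted p = 0.211). Lrfn3 (ENSRNOG00000020839), a member of the same family as Lrfn5, went the other way. It was at 4.26, 3.43 and 5.06 CPM after PRATA and at 5.18, 7.80 and 6.61 CPM after sham, the only member tested whose PRATA samples all lay below its sham samples (log2 fold change -0.61, edgeR adjusted p = 0.311). Lrfn4 had a log2 fold change of -0.42, and the other 8 genes of this group lay between 0.08 for Lrrtm4 and 0.66 for Lrfn2. Slitrk6 had 0, 0 and 3 counts after PRATA and 7, 13 and 7 counts after sham, too few to be tested, and the PRATA samples were at or under the limit of 3 counts.

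FLRT proteins bind latrophilins, the adhesion G protein-coupled receptors of the presynaptic side, and both families were detected here. Flrt1 (ENSRNOG00000022428) was at 28.5, 20.9 and 21.2 CPM after PRATA and at 14.5, 18.9 and 11.7 CPM after sham. The groups did not overlap, and the log2 fold change was 0.65 (standard error 0.24, edgeR adjusted p = 0.223). The unadjusted p exceeded 0.05 without PRATA replicate 1 (0.47), sham replicate 1 (0.61) or sham replicate 3 (0.51). Flrt3 had a log2 fold change of 0.57 and Flrt2 of 0.18, with overlapping groups for both. Adgrl3 (ENSRNOG00000030149), a latrophilin that binds FLRT proteins, was at 82.2, 118 and 72.1 CPM after PRATA and at 131, 84.9 and 133 CPM after sham. PRATA replicate 2 lay among the sham samples and sham replicate 2 among the PRATA samples, and the log2 fold change was -0.36 (edgeR adjusted p = 0.472). Without sham replicate 2 it was -0.54, with an unadjusted p under 0.05, and it was -0.59 without PRATA replicate 2 and -0.22 without PRATA replicate 3. Adgrl1 and Adgrl2 had log2 fold changes of 0.44 and 0.15.

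The 2 members that were lower with an unadjusted p under 0.05 belonged to the SynCAM and NCAM groups. Cadm4 (ENSRNOG00000024243), a SynCAM protein known from Schwann cells, where it binds Cadm3 on the axon, was at 76.7, 120 and 94.8 CPM after PRATA and at 280, 84.0 and 229 CPM after sham. Sham replicates 1 and 3 were high, whereas sham replicate 2 lay among the PRATA samples. The log2 fold change was -1.02 (standard error 0.40, edgeR adjusted p = 0.241). Without sham replicate 2 it was -1.38 (edgeR adjusted p = 0.0339), in a fit where 721 of 15438 genes had an adjusted p under 0.05. Without sham replicate 1 it was -0.71 (edgeR adjusted p = 0.447), and the unadjusted p also exceeded 0.05 without PRATA replicate 1 (-0.90), PRATA replicate 3 (-1.004) or sham replicate 3 (-0.90). Cadm3 (ENSRNOG00000003365), the axonal partner, was at 230, 157 and 194 CPM after PRATA and at 108, 167 and 116 CPM after sham, so here too sham replicate 2 lay among the PRATA samples. Its log2 fold change was 0.57 (standard error 0.23, edgeR adjusted p = 0.250), and its unadjusted p exceeded 0.05 without PRATA replicate 1 (0.41), PRATA replicate 3 (0.57), sham replicate 1 (0.43) or sham replicate 3 (0.50). The log2 ratio of Cadm3 to Cadm4 was 1.58, 0.38 and 1.03 after PRATA and -1.37, 0.99 and -0.98 after sham, with sham replicate 2 inside the PRATA range. Cadm1 (ENSRNOG00000018778), the most studied SynCAM protein, was at 316, 304 and 384 CPM after PRATA and at 293, 317 and 310 CPM after sham (log2 fold change 0.13), and Cadm2 had a log2 fold change of 0.00.

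Ncam2 (ENSRNOG00000002126), an adhesion protein of axons, was at 62.0, 81.3 and 49.3 CPM after PRATA and at 119, 64.6 and 140 CPM after sham. Sham replicate 2 again lay among the PRATA samples, and the log2 fold change was -0.75 (standard error 0.31, edgeR adjusted p = 0.252). Its unadjusted p exceeded 0.05 without PRATA replicate 1 (-0.75), PRATA replicate 3 (-0.59), sham replicate 1 (-0.70) or sham replicate 3 (-0.51). Ncam1 (ENSRNOG00000031890), which carries polysialic acid on growing axons and is made by neurons and non-myelinating glia, was at 198, 299 and 183 CPM after PRATA and at 270, 183 and 213 CPM after sham. Its log2 fold change was 0.03 (standard error 0.25, edgeR adjusted p = 0.963), and -0.22 without PRATA replicate 2. Within the samples, the log2 ratio of Ncam1 to Ncam2 was 1.68, 1.88 and 1.89 after PRATA and 1.19, 1.50 and 0.60 after sham. Every PRATA ratio lay above every sham ratio, and this pair was chosen as the higher and the lower gene of its family, so it is given without a test. Such a ratio was formed for every family. The groups were clearly apart only for the NCAM and LRFN ratios. The LRRTM ratio was 1.77 in replicate 3 of both groups, and the ratios of the remaining families overlapped.

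**Figure D3:**
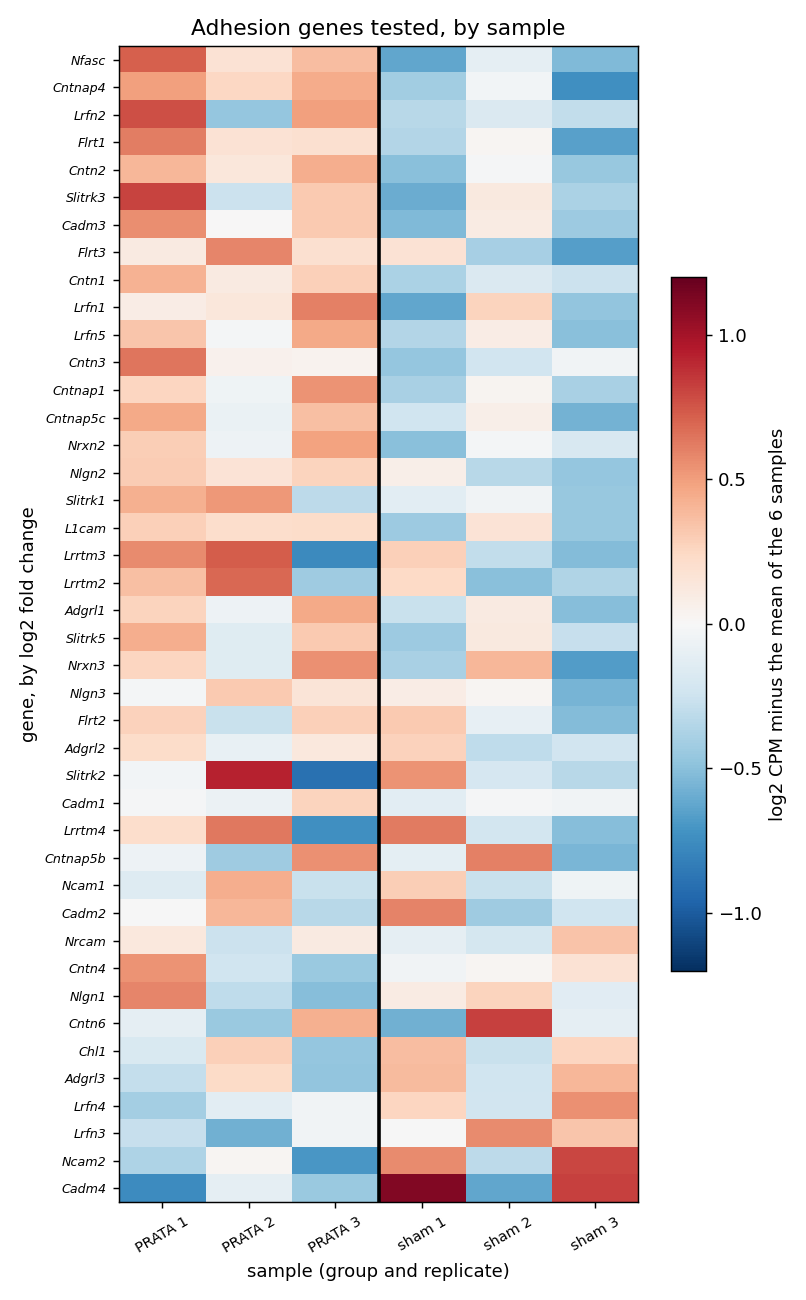
Log2 CPM of the adhesion genes tested, with 1 not shown, in each of the 6 samples (columns), as the difference from the mean of the 6 samples of that gene (colour, log2 units), in order of log2 fold change. PRATA replicate 2 differs from PRATA replicates 1 and 3 at several genes in the lower rows, and Cadm4 and Ncam2 are high in sham replicates 1 and 3 alone.

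The samples did not separate by group when they were clustered on the 43 adhesion genes. PRATA replicate 2 joined sham replicates 1 and 3, and PRATA replicates 1 and 3 joined sham replicate 2. The former 3 samples had the highest mean log2 CPM of the satellite glia markers, at 7.01 in PRATA replicate 2, 7.33 in sham replicate 1 and 7.24 in sham replicate 3, beside 6.10, 5.90 and 6.37 in PRATA replicates 1 and 3 and sham replicate 2. The mean log2 CPM of the sensory neuron markers was 8.97, 8.56 and 9.05 after PRATA and 8.04, 8.66 and 8.28 after sham, so sham replicate 2 lay within the PRATA range of this measure as well. With the satellite glia mean as a covariate in the edgeR fit, an alternative added after seeing the data, the log2 fold change was -0.24 for Cadm4, -0.20 for Ncam2 and 0.06 for Adgrl3. In that fit 4 members were higher (Cntn2, Flrt3, Lrrtm2 and Nfasc) and 1 lower (Lrfn3) with an unadjusted p under 0.05, where 6.23% of all genes were higher and 5.55% lower. With the sensory neuron mean as the covariate instead, also added after seeing the data, the log2 fold change was 0.43 for Nfasc (edgeR adjusted p = 0.502), 0.25 for Cntn2, 0.34 for Cntn1, 0.47 for Cntnap4 and 0.07 for Cadm3, and none of these 5 had an unadjusted p under 0.05. That fit had 5 other members higher with an unadjusted p under 0.05, namely Cadm2, Flrt3, Lrrtm2 (1.16), Ncam1 (0.60) and Slitrk2, and 1 lower, Lrfn3, where 6.86% of all genes were higher and 4.73% lower. The sensory neuron mean was itself 0.53 higher after PRATA, so this covariate can take up part of a difference made by PRATA. Its 17 markers include Calca, with a log2 fold change of 0.85 here. The paper reports Calca as upregulated after PRATA. A covariate also leaves less to estimate the spread from, so p-values can rise for that reason. Whether neuron content made the differences smaller in this fit was not tested. Subtracting the sensory neuron mean of each sample instead takes 0.53 from the log2 difference of every gene, and after it 23.3% of the members and 13.1% of all genes lay above 0, with medians of -0.13 and -0.49.

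**Figure D4:**
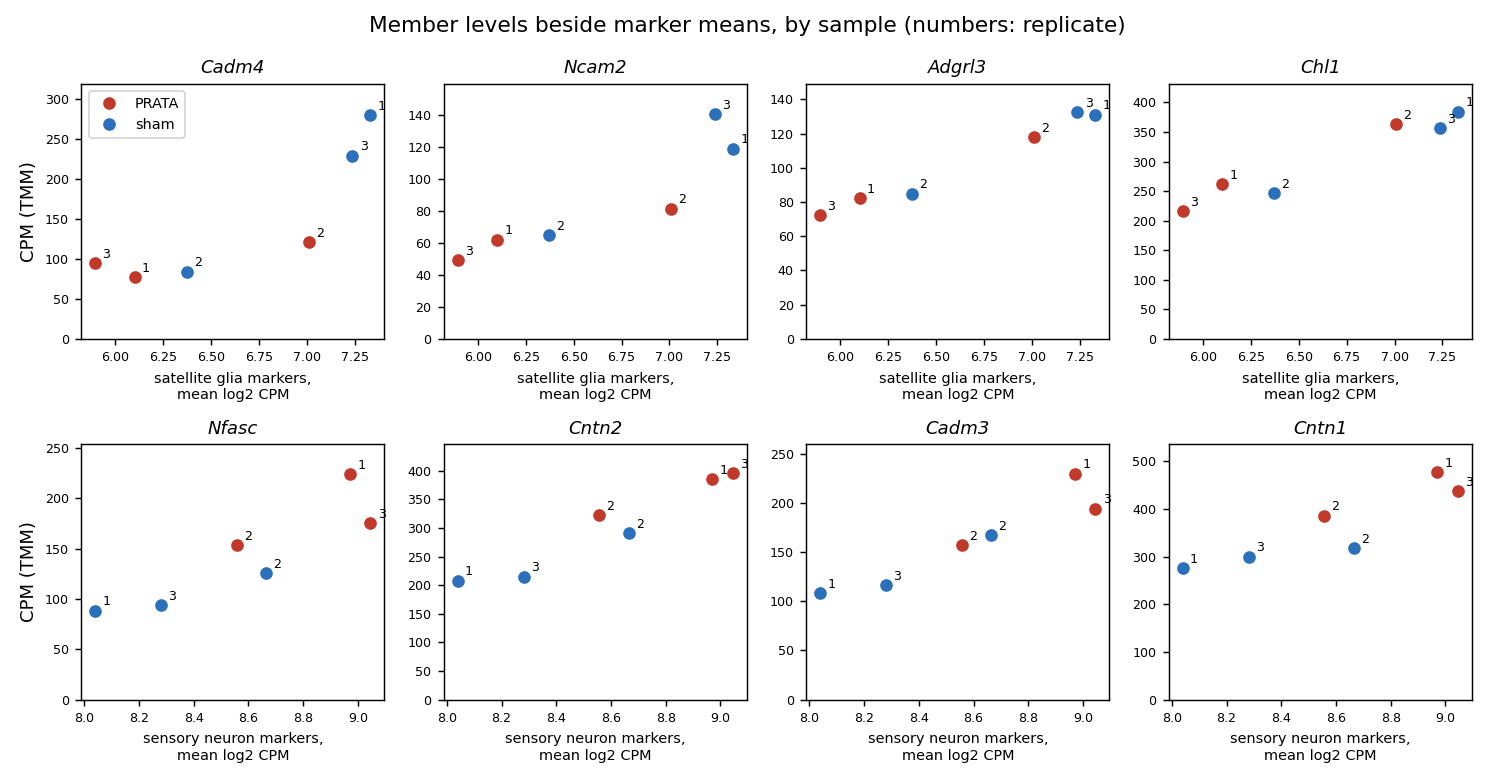
Level of 4 members against the mean log2 CPM of 10 satellite glia markers (upper row) and of 4 members against that of 17 sensory neuron markers (lower row), by sample (PRATA red, sham blue, with replicate numbers). The y axes give TMM-normalized CPM from 0. For Cadm4, Ncam2, Adgrl3 and Chl1 the 3 highest samples are PRATA replicate 2 and sham replicates 1 and 3, where the glial mean is above 7, and Nfasc, Cntn2, Cadm3 and Cntn1 are lowest in sham replicates 1 and 3.

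By RefSeq's gene order on the GRCr8 assembly, 9 of the 45 members, all of them matched by symbol, stood beside another member with 0 protein-coding genes between them. Cntn2 and Nfasc were such a pair on chromosome 13, and both were higher after PRATA with an unadjusted p under 0.05. Cntn3, Chl1, Cntn6 and Cntn4 formed a run on chromosome 4, and their log2 fold changes, in that order, were 0.51, -0.23, -0.14 and -0.05. Slitrk1, Slitrk6 and Slitrk5 formed a run on chromosome 15, and the log2 fold changes of the tested genes among them were 0.46 for Slitrk1 and 0.41 for Slitrk5.

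The promoters of the neighbours Cntn2 and Nfasc, and of the paralogs Cadm3 and Cadm4, whose log2 fold changes had opposite signs, are shown as the 250 bases before the start in RefSeq's GRCr8 annotation, 5′ to 3′ on the strand of the gene. Capitals mark a match to a searched motif. The Cntn2 window is chr13:46528026-46528275 on the minus strand, and that of Nfasc is chr13:46701165-46701414 on the minus strand, at the start farther upstream of the 2 listed. The Cadm3 window is chr13:88349719-88349968 on the minus strand, and that of Cadm4 is chr1:89202839-89203088 on the plus strand.
Cntn2: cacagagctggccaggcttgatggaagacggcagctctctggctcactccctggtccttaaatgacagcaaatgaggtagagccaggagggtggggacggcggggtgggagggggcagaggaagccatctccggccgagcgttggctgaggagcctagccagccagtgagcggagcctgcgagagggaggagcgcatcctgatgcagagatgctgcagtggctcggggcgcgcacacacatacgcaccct
Nfasc: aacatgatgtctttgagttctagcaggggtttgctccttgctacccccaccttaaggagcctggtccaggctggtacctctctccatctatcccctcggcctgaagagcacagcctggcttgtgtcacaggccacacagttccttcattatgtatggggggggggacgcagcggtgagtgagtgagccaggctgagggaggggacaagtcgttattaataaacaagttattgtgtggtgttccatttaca
Cadm3: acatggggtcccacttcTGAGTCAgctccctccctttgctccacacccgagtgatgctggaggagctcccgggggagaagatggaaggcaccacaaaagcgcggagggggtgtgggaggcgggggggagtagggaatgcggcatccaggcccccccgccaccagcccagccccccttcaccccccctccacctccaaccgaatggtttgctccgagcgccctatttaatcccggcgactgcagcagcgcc
Cadm4: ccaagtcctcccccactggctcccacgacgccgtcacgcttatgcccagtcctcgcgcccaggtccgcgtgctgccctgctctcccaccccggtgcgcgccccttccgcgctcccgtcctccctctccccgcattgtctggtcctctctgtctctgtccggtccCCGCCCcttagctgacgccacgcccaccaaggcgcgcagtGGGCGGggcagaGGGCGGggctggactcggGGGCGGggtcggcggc
The motifs searched, on both strands, were the TATA box spelled TATAA, the NF-Y site spelled CCAAT, the GC box spelled GGGCGG, the AP-1 site spelled TGAGTCA and the cAMP response element spelled TGACGTCA, and none of these strings contains another. The Cadm4 window held the GC box at 86, 46, 34 and 16 bases before the start, the first of them as CCGCCC, and 27 CpG dinucleotides. The Cadm3 window held an AP-1 string 233 bases before the start and 13 CpG. The Cntn2 window, with 13 CpG, and the Nfasc window, with 4 CpG, held none of the 5 motifs, while the window at the other Nfasc start held the NF-Y string. Of the members, 34 had a promoter in the RefSeq table, with 35 starts in all. The GC box was found in 20% of these 35 windows, where 38.9% of all 21851 promoter windows held it, and the NF-Y string in 14.3%, where 35.0% of all did. The TATA box was in 14.3%, where 22.2% of all held it. The AP-1 string was in 11.4% (Cadm3, Cntn4, Lrrtm4 and Slitrk6), where 3.65% of all held it, and the cAMP response element in 5.71% (Lrrtm2 and Slitrk2), where 1.89% of all did. The median number of CpG was 7 per member window and 8 over all windows.

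Genes that work with these adhesion proteins were taken as 3 further lists. Of 34 other synaptic organizers and ligands tested, 31 had a log2 fold change above 0, with a median of 0.55. With an unadjusted p under 0.05, 15 were higher and 0 lower, where 8.19% of all genes were higher and 10.1% lower. The smallest p among them belonged to Elfn1, a postsynaptic organizer that recruits glutamate receptors, at 60.5, 49.4 and 60.0 CPM after PRATA and 32.4, 41.2 and 33.6 CPM after sham (log2 fold change 0.67, edgeR adjusted p = 0.168). The log2 fold change was 0.80 for Clstn2, a calsyntenin (edgeR adjusted p = 0.174), and 0.81 for Adam11, a relative of the LGI1 receptors (edgeR adjusted p = 0.175). The groups did not overlap for any of these 3 genes.

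Of 39 intracellular scaffolds and adaptors that bind the tails of adhesion proteins, 28 had a log2 fold change above 0, with a median of 0.34. With an unadjusted p under 0.05, 9 were higher and 6 lower, where 8.19% of all genes were higher and 10.1% lower. Sptbn4, the spectrin under nodes and initial segments, was at 105, 91.4 and 86.2 CPM after PRATA and at 62.8, 47.1 and 59.6 CPM after sham (log2 fold change 0.73, edgeR adjusted p = 0.156). Magi2, a synaptic scaffold, and Afdn, the nectin adaptor afadin, had log2 fold changes of 0.68 and 0.72. In the other direction, Mpp6, a membrane-associated guanylate kinase, was at 43.9, 46.5 and 51.7 CPM after PRATA and at 120, 69.6 and 146 CPM after sham (log2 fold change -1.24, edgeR adjusted p = 0.156). Dlg1 and Homer3, scaffolds of junctions and of postsynaptic receptors, had log2 fold changes of -1.14 and -1.01. These 6 genes had groups that did not overlap, and the high sham values of Mpp6 were again in replicates 1 and 3.

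Of 36 IgLON, cadherin and other neuronal adhesion genes tested, 24 had a log2 fold change above 0, with a median of 0.16. With an unadjusted p under 0.05, 4 were higher and 4 lower. These counts are near the shares of all genes, 8.19% higher and 10.1% lower. Nectin2, an immunoglobulin adhesion protein of cell junctions, was at 36.7, 39.4 and 40.2 CPM after PRATA and at 20.6, 25.8 and 22.8 CPM after sham (log2 fold change 0.75, edgeR adjusted p = 0.156). Celsr3, a cadherin of axon tract formation, and Igsf9b, an adhesion protein of inhibitory synapses, had log2 fold changes of 0.64 and 0.65. The genes that were lower included Jam3, a junctional adhesion molecule (log2 fold change -0.79), Kirrel1, a nephrin relative (-1.39), and Nectin3, a partner of other nectins (-0.41). Kirrel1 was at 43.4, 89.5 and 46.9 CPM after PRATA and at 162, 88.2 and 221 CPM after sham, so that PRATA replicate 2 lay above sham replicate 2. Sham replicates 1 and 3, the samples with the highest satellite glia marker means (7.33 and 7.24), held the highest values of Cadm4, Ncam2, Mpp6 and Kirrel1. That mean was 7.01 in PRATA replicate 2 and 6.37 in sham replicate 2. In PRATA replicate 2 and sham replicate 2, in that order, Cadm4 was at 120 and 84.0 CPM and Ncam2 at 81.3 and 64.6 CPM. Mpp6 was at 46.5 and 69.6 CPM there, and Kirrel1 at 89.5 and 88.2 CPM, so these genes did not follow the glial mean across all samples. These 4 genes were set together after their values were seen. The mean log2 CPM of the Schwann cell markers was 5.87, 6.57 and 5.61 after PRATA and 5.62, 5.32 and 4.91 after sham. Why the 4 genes were high in sham replicates 1 and 3 was not tested.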

How the data were processed

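Total RNA of isolated L1-L2 DRG neurons was sequenced in 3 PRATA and 3 sham samples. Neurons had been separated from glia by a difference in how fast the cells adhered, after digestion with collagenase and trypsin. RNA was extracted with TRIzol and treated with DNase I, and libraries were made with a stranded total RNA kit that cleaves ribosomal fragments. The authors deposited 1 table of raw counts per gene (whole numbers, not normalized). The submitters' processing notes name STAR 2.7.3a, RSEM and DESeq2, while the study's methods name HISAT2, StringTie and Cuffdiff. Which of them made the counts, the genome build, the annotation, the strand setting and the handling of multiply mapped reads are not given in the sources used here.

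From these counts, genes passing filterByExpr (minimum count 10, minimum total 15) were kept, TMM factors (0.953 to 1.10) were computed, and the groups were compared with edgeR 4.0.16 (R 4.3.3), quasi-likelihood test, two-sided, no covariate, Benjamini-Hochberg adjustment over all genes tested. Values in CPM are TMM-normalized counts per 1e+06 counts, apart from the limits for 3 counts, which used the raw totals. Gene lengths were not used, so the CPM of different genes does not rank their abundance. The choice of the highest mean CPM of a role group, the sums over lists and the ratios between genes took no account of length. Samples were grouped by the treatment in the labels. The fitting step was tested on simulated data. Adhesion genes were named in full where the unadjusted p was under 0.05, where they had the highest mean CPM of their role group, or where they had the smallest p of a group with none under 0.05, and from each partner list up to 3 genes in each direction with the smallest p under 0.05 were named. Lrfn3, Cntn3, the pairs given as ratios, the promoters shown and the 8 members plotted beside marker means were chosen after their values were seen. The members and lists were chosen with earlier results of these data known. Alternatives were DESeq2 1.42.0, limma 3.58.1 (voom with sample quality weights, and trend), other normalizations and filters, left-out samples, a replicate block and marker covariates. Same-numbered samples did not deviate together. Promoters came from RefSeq (GRCr8). Values of 1 member are not reported here, although it is included in the counts and medians.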

Additional observations from a re-analysis of the deposited data

How the results depend on the processing

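No member passed an adjusted p under 0.05 in the edgeR test, where 11 had an unadjusted p under 0.05. DESeq2 gave 1 member (Nfasc), where 728 of 14919 genes passed. The voom fit of limma with sample quality weights gave 5 (Cntn1, Cntn2, Cntnap4, Flrt1 and Nfasc), where 1173 of 14919 genes passed. Leaving out a sample gave 0 to 2. The 2, of 44 members tested, were Nfasc and Cadm4 without sham replicate 2, where 721 of 15438 genes passed. The counts of 9 higher and 2 lower members with an unadjusted p under 0.05 became 18 and 4 with voom, where 15.6% of all genes were higher and 15.3% lower, beside 8.19% and 10.1% in the main comparison. limma-trend gave 0 lower members (9.02% of all genes). With the satellite glia covariate they were 4 and 1 (6.23% and 5.55% of all genes), and with the sensory neuron covariate 5 and 1 (6.86% and 4.73%), none of which was among the original 11. Leaving out PRATA replicate 3 and sham replicate 1 together gave 1 lower member (6.90% of all genes). Leaving out single samples gave 2 to 16 higher and 0 to 4 lower members, where 3.47% to 13.4% of all genes were higher and 5.44% to 14.1% lower. The higher count was 2 without PRATA replicate 1, 3 without sham replicate 3 and 16 without sham replicate 2. The lower count was 0 without PRATA replicate 1, PRATA replicate 3 or sham replicate 3, 1 without sham replicate 1 and 4 without sham replicate 2.

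With a log2 fold change past 1 as well, the count of 0 higher members was 1 with voom, 1 in the 4 samples without PRATA replicate 3 and sham replicate 1, 3 with the sensory neuron covariate and 0 to 1 when a sample was left out. The count of 1 lower member was 2 with no filter (Slitrk6 added to the genes tested), 0 with limma-trend, 0 in those 4 samples, 0 with a covariate for that pair, 0 with the satellite glia covariate and 0 to 2 when a sample was left out. The share of all genes past both thresholds was computed for the main comparison alone (1.17% higher and 3.23% lower). The counts of the other fits therefore cannot be set beside a share of all genes. With the replicate number as a block, 3 members were higher (Cntnap4, Flrt1 and Nfasc) and 0 lower at an unadjusted p under 0.05, where 4.16% and 6.08% of all genes were, and 0 lower past the fold threshold as well. Across all genes, deviations from the group means had r of -0.35, -0.05 and -0.35 in the 3 same-numbered pairs, so these pairs did not deviate together. With 3 samples per group, such values cannot show whether same-numbered samples were handled together. For Nfasc, 18 of 19 alternatives with a test kept an unadjusted p under 0.05, the sensory neuron covariate being the exception. Its log2 fold change ranged from 0.43 to 1.02 in those fits. It was 0.32 after the sensory neuron mean was subtracted, a value without a test.

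The median log2 fold change of the members, 0.41, was 0.20 with the satellite glia covariate, 0.14 with the sensory neuron covariate and -0.13 after the sensory neuron mean was subtracted. Since the subtraction takes 0.53 from every gene and moved the median of all genes to -0.49, smaller differences turn by construction, among the 11 called members those of Nrxn2 (-0.053), Nlgn2 (-0.044) and Cntnap1 (-0.030). The sensory neuron covariate turned Ncam2 (0.034), Cadm4 (0.21), Adgrl3 (0.27) and Cadm1 (-0.043) and moved Ncam1 to 0.60 with an unadjusted p under 0.05, and the satellite glia covariate Adgrl3 (0.058). Ncam1 turned to -0.049 with voom, ranged from -0.22 (without PRATA replicate 2) to 0.18 (without sham replicate 1) when a sample was left out, being -0.089 without sham replicate 2, and Cadm1 turned to -0.024 in the 4 samples. The cause of these changes was not tested. Both marker covariates were chosen after seeing the data. The sensory neuron mean was itself higher after PRATA, so that covariate can take up part of a difference made by PRATA. Depth, lowest in sham replicate 2, limits statements on Slitrk6 and Cntn5, the members with too few counts to be tested.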
